A study of Mus musculus with 4 samples.

Results

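The genes described here are 10 transcripts of the neutrophil, taken by gene symbol from a count table of 40481 mouse genes. They are S100a8 and S100a9 (calprotectin), Mmp8, Camp, Ngp, Ltf and Lcn2 (specific granules), Mmp9 (gelatinase granules), Retnlg (a secreted protein) and Csf3r (a surface receptor). They were read in RNA sequencing libraries of type 1 innate lymphoid cells (ILC1s), which live in tissues, resemble natural killer cells and were selected here by the integrin CD49a. All 4 libraries came from Inpp4b flox/flox mice. The 2 control libraries, numbered 1 and 2, carried no further allele per the labels, while the 2 knockout-labelled libraries, numbered 3 and 4, also carried Ncr1-iCre, which drives recombination in cells that express the receptor NKp46. The presence of the recombinase and the loss of Inpp4b cannot be told apart in this design, since no control carried Ncr1-iCre. Only control library 1 has a tissue in its label, liver, and the labels give neither the age or sex of the mice nor whether animals were pooled.

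Neutrophils carry preformed granules that are filled in sequence as the cell matures in the bone marrow. Azurophil granules hold myeloperoxidase and elastase, specific granules hold lactoferrin, lipocalin and cathelicidin, and gelatinase granules are made last. Calprotectin is a dimer of S100A8 and S100A9 that binds calcium and zinc and fills the cytosol, and its transcripts are among the most abundant of mature neutrophils and are also made by monocytes. The comparison asks whether the genes give the same account of neutrophil RNA in each library.

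Library totals ranged from 42380840 to 54878210 counts. The CD49a gene Itga1 stood at 217.6 and 207.9 CPM (counts relative to the library total, scaled with TMM factors) in the controls and at 178.9 and 206.0 CPM in the knockout-labelled libraries, and Ncr1 stood between 1077 and 1772 CPM. Inpp4b was not lower in the knockout-labelled libraries, at 78.7 and 106.5 against 142.5 and 86.0 CPM. The whole-gene count cannot show the loss of some exons, and which exons the floxed allele removes is not stated in the labels. Directions below follow the labels.

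The 10 genes gave no common account of neutrophil RNA. Mmp9 had between 4459 and 10441 counts in each library, Csf3r and Mmp8 were read at low to moderate counts that differed between libraries, and the other 7 genes together had 75 counts of 199876110. These 7 did not exceed 20 counts in any library. Retnlg had 0 counts in all 4 libraries. Mmp9 alone made up 99.1%, 96.7%, 97.1% and 91.3% of the counts of the 10 genes in control libraries 1 and 2 and knockout-labelled libraries 3 and 4.

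**Figure D1:**
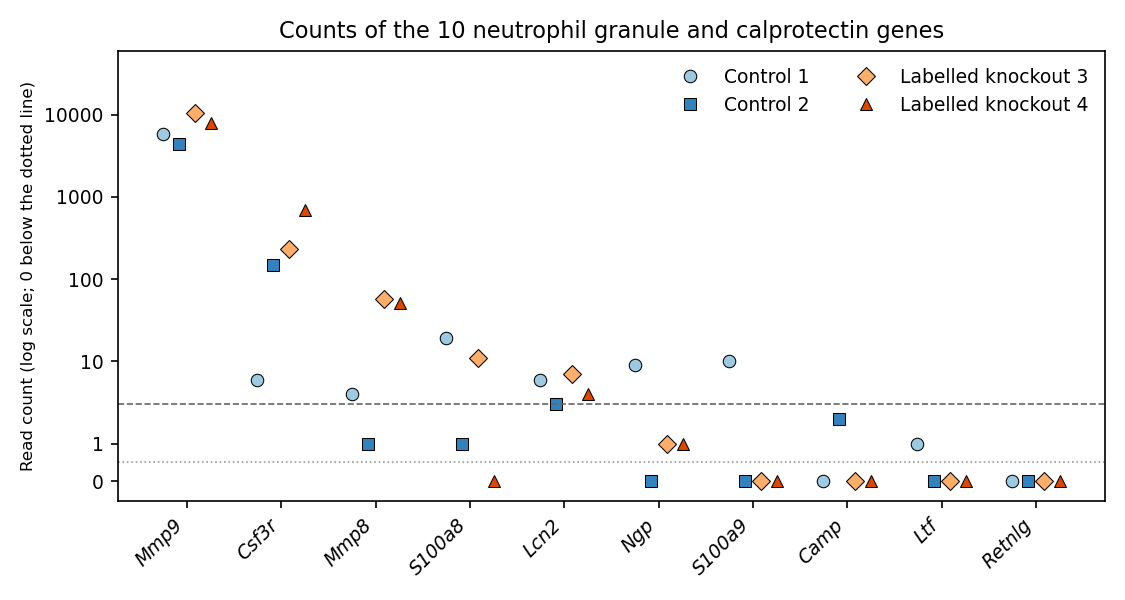
Read counts of the 10 genes (x axis, ordered by total) in each library on a log scale (y axis), with 1 marker per library, counts of 0 below the dotted line, and a dashed line at 3 counts. Mmp9 sits between 4459 and 10441 counts in all libraries, Csf3r between 6 and 701, and 7 genes stay at or below 20 counts in every library.

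The calprotectin genes were close to absent. S100a8 (ENSMUSG00000056054, mm10 chromosome 3, 90668978 to 90670035) had 19 counts in control library 1, 1 in control library 2, 11 in knockout-labelled library 3 and 0 in knockout-labelled library 4. S100a9 (ENSMUSG00000056071), its dimer partner, lies on the same chromosome at 90692632 to 90695721 and had 10 counts in control library 1 and 0 in the other libraries. One library of each group thus held nearly all of the S100a8 counts, and the groups overlapped. As CPM, the sum of both genes was 0.50 and 0.0212 in the controls and 0.256 and 0 in the knockout-labelled libraries, where 3 counts correspond to 0.0517 to 0.0698 CPM depending on the library. The log2 fold change of S100a8 was -0.47 (SE 1.998, adjusted p = 0.989, edgeR), with a 95% interval of -5.30 to 4.36. It reversed to 0.49 without knockout-labelled library 4 and was -6.25 without library 3. No test compared the ratio of the 2 genes between libraries. S100a8 made up 65.5% of their joint counts in control library 1 (exact binomial 95% interval 45.7 to 82.1%) and all 11 counts in library 3 (71.5 to 100%). These intervals overlap, which does not show that the ratios are equal. They cover counting error only, since reads counted without molecular identifiers can be copies of one another.

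The specific granule genes Camp, Ngp, Ltf and Lcn2 had 34 counts in all. Lcn2 (ENSMUSG00000026822), which encodes an iron-scavenging lipocalin that hepatocytes and macrophages can make too, was the most evenly spread, with 6 and 3 counts in the controls and 7 and 4 in the knockout-labelled libraries. Ngp (ENSMUSG00000032484), which encodes a cystatin-related granule protein, had 9 counts in control library 1, 0 in control library 2 and 1 in each knockout-labelled library. Camp (ENSMUSG00000038357), the precursor of the antimicrobial peptide cathelicidin, had 2 counts in control library 2 and 0 elsewhere. Ltf (ENSMUSG00000032496), the gene of the iron-binding lactoferrin, had 1 count in control library 1 and 0 elsewhere. These 4 genes, with S100a9 and Retnlg (ENSMUSG00000022651), were the 6 of 10 that did not pass the filter on low counts. No difference was tested for them. Where a gene had 0 counts, up to 3 counts, or at most 0.0698 CPM, are allowed.

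Mmp8 (ENSMUSG00000005800, chromosome 9, 7558456 to 7568485), which encodes the neutrophil collagenase of the same granules, did not follow them. It had 4 and 1 counts in the controls and 58 and 51 counts in the knockout-labelled libraries. The groups were apart, at 0.0451 ± 0.0338 CPM in controls and 1.17 ± 0.257 CPM in the knockout-labelled libraries (SD, n = 2 each). Over both libraries of each group the ratio of scaled levels was 24.2, with a counting interval of 10.1 to 76.1. The fitted log2 fold change was 4.60 (SE 1.22, adjusted p = 0.329, edgeR) and did not pass the threshold. Mmp8 passed the filter on low counts only through the group in which it was higher. DESeq2 gave an adjusted p of 0.0676 on the filtered genes and 0.0303 without the filter, where Mmp8 was called.

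Mmp9 (ENSMUSG00000017737, chromosome 2, 164940780 to 164955850), which encodes gelatinase B, was the only one of the 10 genes at a high level. It stood at 102 and 94.4 CPM in the controls and at 243 and 154 CPM in the knockout-labelled libraries. Both knockout-labelled libraries were above both controls, and library 3 was the highest. The controls averaged 98.1 ± 5.31 CPM and the knockout-labelled libraries 198 ± 63.2 CPM (SD, n = 2 each). Fitted over all libraries, the log2 fold change came to 1.01 (SE 0.24, adjusted p = 0.288, edgeR), with a 95% interval of 0.45 to 1.58, and edgeR did not call it. DESeq2 called Mmp9 higher (log2 fold change 1.02, DESeq2 adjusted p = 0.00304). With no filter on low counts edgeR called it too (log2 fold change 0.99, adjusted p = 4.22e-05, edgeR), but that setting called 563 of 23999 genes. The log2 fold change ranged from 0.62 without knockout-labelled library 3 to 1.28 without library 4.

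Csf3r (ENSMUSG00000028859, chromosome 4, 126024550 to 126044440) encodes the receptor for granulocyte colony-stimulating factor, which drives neutrophil production. It had 6 counts in control library 1, 147 in control library 2, 235 in knockout-labelled library 3 and 701 in library 4. These counts correspond to 0.103, 3.11, 5.47 and 13.5 CPM. The groups were apart, but the 2 controls differed from each other more than control library 2 differed from library 3. The log2 fold change was 2.57 (SE 1.28, adjusted p = 0.596, edgeR), with a 95% interval of -0.52 to 5.66. The value was 1.61 without control library 1, 6.49 without control library 2 and 1.77 without knockout-labelled library 4. DESeq2 did not call it (DESeq2 adjusted p = 0.218), whereas edgeR called it with no filter on low counts (adjusted p = 0.000568), a setting that called 563 of 23999 genes.

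edgeR called 0 of the 4 genes it could test, against 0.155% of the 14863 genes tested. Mmp8 and Mmp9 had an unadjusted edgeR p under 0.05 in the higher direction, as 4.48% of all tested genes did, and none of the 4 in the lower direction, where 5.17% did. DESeq2, which called 1.61% of the genes with an adjusted p higher and 1.29% lower on the filtered table, called Mmp9. Without the filter it called 1.83% higher and 1.34% lower, with Mmp8 and Mmp9 among the former. Both knockout-labelled libraries lay above both controls for 3 of the 4 tested genes (Mmp8, Mmp9 and Csf3r), and 19.5% of all tested genes were placed in this way. None of the 4 lay below both controls, against 20.8% of all tested genes. Mmp8 passed the filter only through the group in which it was higher. The 6 genes that were not tested overlapped between groups, but had too few counts to be set against these shares. An exact permutation test of 2 against 2 libraries cannot give a two-sided p below 0.333 for a single gene.

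**Figure D2:**
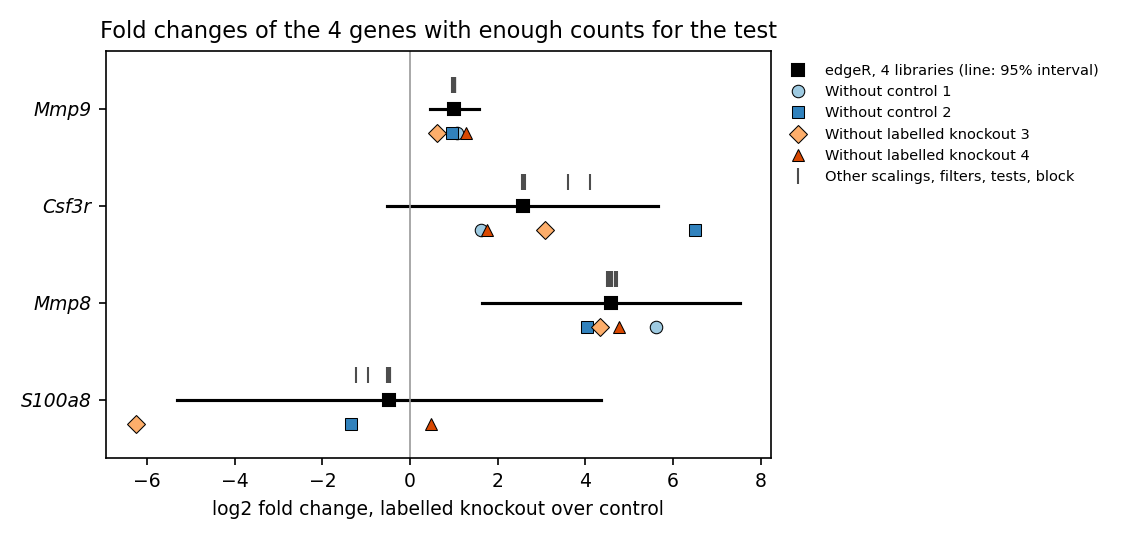
The log2 fold change of the knockout-labelled libraries over control (x axis) for the 4 genes with enough counts for the test, with the edgeR value and its 95% interval (black), the value with each library left out (coloured markers) and other settings, the replicate block included (ticks). Mmp9 stays between 0.62 and 1.28, while S100a8 moves from -6.25 to 0.49; S100a8 could not be tested without control library 1.

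The genes placed the libraries in different orders. Control library 1 was the highest for 4 genes (S100a8, S100a9, Ngp and Ltf), control library 2 for Camp, knockout-labelled library 3 for Mmp8, Mmp9 and Lcn2, and library 4 for Csf3r. Ltf and Camp had 1 and 2 counts over all libraries, too few to order them. Lcn2 had 7 counts in library 3 and 6 in control library 1, which does not separate these libraries. Control library 1 held 27.5% of all counts in the table. It held 61.3% of the S100a8 counts (exact binomial 95% interval 42.2 to 78.2%) and 81.8% of the Ngp counts (48.2 to 97.7%). In contrast it held 20.5% of the Mmp9 counts (20.1 to 21%), 3.51% of the Mmp8 counts (0.964 to 8.74%) and 0.551% of the Csf3r counts (0.202 to 1.20%). The intervals of S100a8 and Ngp lie above those of Mmp9, Mmp8 and Csf3r. They cover counting error only, since reads can be copies of one another. For Lcn2 the share was 30.0% (11.9 to 54.3%), an interval that overlaps those of S100a8, Ngp and Mmp9. Ngp would place the most neutrophil RNA in control library 1, and Csf3r would place the least there. S100a8 was at 0.328 CPM in control library 1 (counting interval 0.197 to 0.512) and at 0.256 CPM in library 3 (0.128 to 0.458). These intervals overlap, so S100a8 does not order those libraries.

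**Figure D3:**
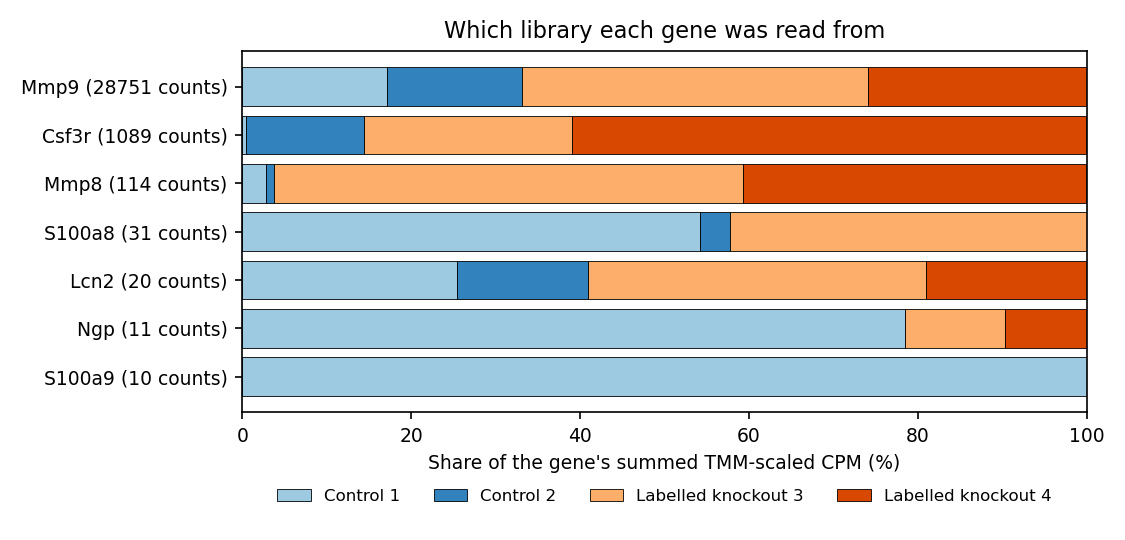
Share of each gene's summed TMM-scaled CPM that came from each library (x axis, percent) for the 7 genes with at least 10 counts over all libraries (y axis). S100a9 was read only in control library 1, whereas the knockout-labelled libraries held 55.6% and 40.6% of Mmp8 and library 4 held 60.9% of Csf3r.

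Ratios within a library do not depend on the scaling. Mmp9 had 310.9 counts per count of S100a8 in control library 1 (exact interval 199 to 517) and 949.2 in knockout-labelled library 3 (530 to 1900). Knockout-labelled library 4 held 7943 counts of Mmp9 and 0 of S100a8. Mmp9 had 180 counts per count of Mmp8 in library 3 and 155.7 in library 4, with overlapping intervals (139 to 237 and 118 to 209), but 1477 in control library 1 (577 to 5420). Csf3r had 0.316 counts per count of S100a8 in control library 1 (0.103 to 0.822) and 21.4 in library 3 (11.7 to 43.4). Csf3r had 0.00102 counts per count of Mmp9 in control library 1 and 0.0883 in knockout-labelled library 4 (0.000373 to 0.00221 and 0.0816 to 0.0954). The same ratio was 0.033 in control library 2 (0.0278 to 0.0389) and 0.0225 in library 3 (0.0197 to 0.0256). Control library 2 had 1 count each of S100a8 and Mmp8, which left its other ratios wide. Its 4459 counts of Mmp9 per count of either gene have an interval of 800 to 176000, which overlaps that of library 3 for S100a8 and that of control library 1 for Mmp8. Its 147 counts of Csf3r per count of S100a8 (26 to 5850) overlap the interval of library 3 as well.

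Levels of different genes were compared per kilobase of exon. On this scale Mmp9 averaged 41.9 CPM per kilobase over the 4 libraries, above 90.2% of the 14853 tested genes with a known exon length. Csf3r averaged 1.54 CPM per kilobase and stood above 37.3% of them. Mmp8 and S100a8 averaged 0.25 and 0.218 CPM per kilobase, above 11.7% and 10.4%, and S100a9 averaged 0.0826 CPM per kilobase, above 3.63%. Mmp9 thus stood above both calprotectin genes on this scale. The series holds no neutrophil sample with which to compare this order, and which cells the Mmp9 RNA came from was not tested.

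The summed level of the 10 genes was 102.8 and 97.6 CPM in the controls and 250.2 and 168.1 CPM in the knockout-labelled libraries, a log2 ratio of group means of 1.06 that was not tested. It followed Mmp9. Without Mmp9 the sums were 0.949 and 3.26 against 7.26 and 14.6 CPM, which followed Csf3r. Without Mmp9, Csf3r and Mmp8 the remaining 7 genes summed to 0.776 and 0.127 CPM in the controls and to 0.442 and 0.0966 CPM in the knockout-labelled libraries, so that 1 library of each group was higher and the groups overlapped. In such bulk libraries fewer cells of a type and less RNA per cell cannot be told apart.

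Other genes of the neutrophil programme were read from 3 lists with 56 genes outside the 10. In these lists 9 genes had 0 counts in every library and 10 more did not exceed 20 counts. The genes at 0 included Cxcr1, a chemokine receptor, Fcnb and Olfm4, granule proteins, and the stefin genes Stfa1 and Stfa3. Among the defining markers, Mpo (myeloperoxidase) had 1 count over all libraries and Elane (neutrophil elastase) had 0 and 1 counts in the controls and 3 and 1 in the knockout-labelled libraries. Ly6g, the surface antigen by which mouse neutrophils are sorted, had 3 and 1 counts in the controls and 6 and 2 in the knockout-labelled libraries. Cxcr2, the chemokine receptor of circulating neutrophils, had 1 count in control library 1 and 0 elsewhere. None of these 4 markers exceeded 6 counts in any library. Cd177, a neutrophil surface glycoprotein gene, was the exception among the 5 defining markers, with 56 and 0 counts in the controls and 71 and 478 in the knockout-labelled libraries (log2 fold change 3.47, SE 1.66, adjusted p = 0.578, edgeR). Like Csf3r, Cd177 was highest in library 4.

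Of these 56 genes 33 could be tested, and edgeR called 2 of them higher in the knockout-labelled libraries, against 0.141% of all tested genes. They were Cybb, a subunit of the phagocyte NADPH oxidase, and Lyz2, the lysozyme gene, both of which monocytes and macrophages express as well. Cybb was at 9.85 and 13.4 CPM in controls and at 60.3 and 67.4 CPM in the other libraries (log2 fold change 2.46, SE 0.25, adjusted p = 0.0489, edgeR). Lyz2 had a log2 fold change of 3.40 (SE 0.27, adjusted p = 0.0467, edgeR). Lyz2 was the one gene called when a control or knockout-labelled library 3 was left out, and 0 were called without library 4. edgeR called none of the 33 lower, against 0.0135% of all tested genes. Both knockout-labelled libraries lay above both controls for 21 of the 33, against 19.5% of all tested genes. They lay below both controls for 2, Gfi1 and Itgb2l, against 20.8%. Itgb2l had 29 and 12 counts in the controls and 6 and 1 in the knockout-labelled libraries. DESeq2 called 9 of the 33 higher and 1 lower, against 1.61% and 1.29% of all genes with an adjusted p. The median log2 fold change of the 33 was 1.43, beside -0.01 over all tested genes. Genes with low counts in the controls could pass the filter only if they were higher in the knockout-labelled libraries.

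The lists of early genes and of other granule and secretory genes also hold genes that do not encode granule proteins. In them Ifitm6 was at 0.638 and 1.10 CPM in the controls and 12.2 and 8.16 CPM in the knockout-labelled libraries (log2 fold change 3.55, SE 0.52, adjusted p = 0.125, edgeR). Chil3, which encodes a chitinase-like protein of neutrophils and macrophages, was at 0.776 and 0.0847 against 7.49 and 11.2 CPM (4.41, SE 0.96, adjusted p = 0.276, edgeR). Hp, the haptoglobin gene, which hepatocytes also express, was at 6.81 and 3.13 against 23.8 and 17.6 CPM (2.05, SE 0.45, adjusted p = 0.277, edgeR). For these 3 genes the groups did not overlap, edgeR made no call and DESeq2 called each higher. Gfi1, a transcriptional repressor that neutrophil precursors and lymphocytes both use, had the opposite direction, at 9.59 and 10.2 CPM in the controls and 2.84 and 3.42 CPM in the knockout-labelled libraries (-1.66, SE 0.38, adjusted p = 0.286, edgeR), and DESeq2 called it lower. Cebpe, the transcription factor gene of specific granule formation, had 32 and 2 counts in the controls and 43 and 0 in the knockout-labelled libraries (adjusted p = 0.977, edgeR). Its counts were high in control library 1 and library 3, the same 2 libraries that held most of the S100a8 counts.

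Among the surface genes, Pirb, an inhibitory receptor gene of myeloid cells, was at 2.45 and 4.83 CPM in controls against 18.5 and 15.2 CPM (log2 fold change 2.21, SE 0.44, adjusted p = 0.239, edgeR). Clec4e, the lectin gene of Mincle, was at 2.29 and 1.27 against 7.38 and 7.11 CPM (2.02, SE 0.50, adjusted p = 0.307, edgeR). Il1r2, the decoy receptor gene for interleukin-1, had 0 counts in both controls and 38 and 40 counts in the knockout-labelled libraries. That is at least 14.4-fold higher when each control is given 3 counts (adjusted p = 0.284, edgeR). In these 3 genes both knockout-labelled libraries were above both controls, as for Mmp8, and DESeq2 called each higher.

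Some genes of monocytes and macrophages, of antigen presentation and of T cells were called higher in the knockout-labelled libraries. Mmp8, Mmp9 and Csf3r lay above the controls there too. Of 25 tested monocyte and macrophage genes edgeR called 7 higher, against 0.141% of all tested genes. In that direction 19 had an unadjusted edgeR p under 0.05, against 4.48%. The summed level of this list of 26 was 307.8 and 382.8 CPM in the controls and 1383 and 1372 CPM in the knockout-labelled libraries. Csf1r, the receptor gene for macrophage colony-stimulating factor, was at 8.95 and 14.9 CPM in controls and at 77.7 and 74.9 CPM in the other libraries (log2 fold change 2.68, SE 0.29, adjusted p = 0.0489, edgeR). Tgfbi, Clec4a1 and Fcgr4 rose too, by 3.81, 3.19 and 3.10 on the log2 scale (adjusted p = 0.0489 for each, edgeR). Of the 7, only Lyz2 was called when a control or knockout-labelled library 3 was left out, and 0 were called without library 4. The Kupffer cell gene Clec4f did not follow, at 5.69 and 4.80 against 4.79 and 0.676 CPM. Of 10 tested dendritic cell and MHC class II genes edgeR called 4 higher. They were Cd74, H2-Aa, H2-Eb1 and H2-Ab1, which act in antigen presentation by several cell types. This list of 13 summed to 857.1 and 935.8 CPM in the controls and to 2089 and 2748 CPM in the knockout-labelled libraries. All 4 were called without knockout-labelled library 3 and 0 without any one of the other libraries. Of 10 tested T cell genes edgeR called 1 higher, the T cell receptor gene Trac, at 7.31 and 5.67 against 85.1 and 201 CPM. It was called without knockout-labelled library 3 and not without any one of the other libraries. Cd3e, which encodes a CD3 chain of T cells, was at 26.5 and 15.1 against 152 and 371 CPM (log2 fold change 3.65, SE 0.49, adjusted p = 0.095, edgeR). The 11 T cell genes summed to 2459 and 2428 against 2958 and 4018 CPM, with library 4 the highest, as for Csf3r and Cd177. Most of this sum came from Trbc1, Trbc2 and Cd3g, the last at 1470 and 1260 against 1620 and 1930 CPM. The sum thus says little about Trac or Cd3e. Not all genes of these lists were higher. The T cell receptor gene Trbc1 was at 443 and 616 CPM in the controls against 390 and 425 CPM. In the dendritic cell list, Zbtb46 was at 9.28 and 12.3 against 4.56 and 4.64 CPM (log2 fold change -1.23, adjusted p = 0.380, edgeR). In the controls Mmp9 was at 102 and 94.4 CPM and Csf1r at 8.95 and 14.9 CPM. Levels of different genes do not show which cells made them. The part of these other cell types, or of the ILC1s, in the levels of Mmp8, Mmp9 and Csf3r was not tested.

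**Figure D4:**
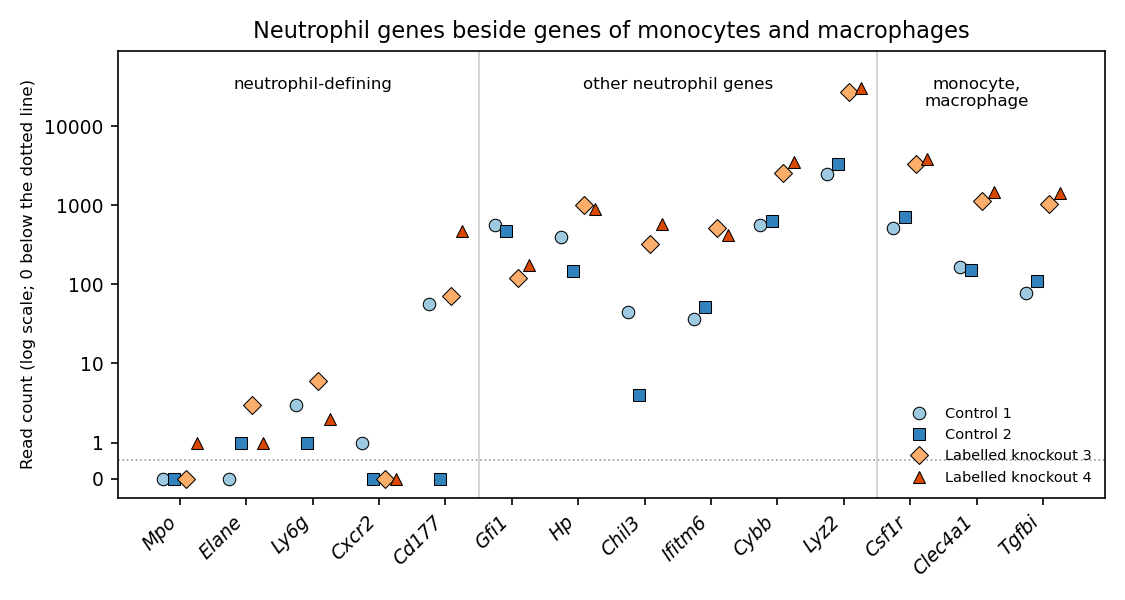
Read counts per library on a log scale (y axis) of 5 neutrophil-defining markers, 6 other genes of the neutrophil lists and 3 monocyte and macrophage genes (x axis), with counts of 0 below the dotted line. Mpo, Elane, Ly6g and Cxcr2 stay at or below 6 counts, whereas both knockout-labelled libraries lie above both controls for Hp, Chil3, Ifitm6, Cybb, Lyz2, Csf1r, Clec4a1 and Tgfbi.

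The summed markers of hepatocytes and of other granulocytes did not put the libraries in the order that S100a8 did. The 19 hepatocyte genes summed to 332 and 181.3 CPM in the controls and to 303.5 and 338 CPM in the knockout-labelled libraries, so that library 4, with 0 counts of S100a8, was the highest. The 12 eosinophil, basophil and mast cell genes summed to 13.7 and 7.51 against 9.75 and 10.4 CPM. The 5 genes whose levels over the 4 libraries were most like the summed S100a8 and S100a9 level were Kdf1 (Euclidean distance of centred log2 profiles 0.488), Rps2-ps10 (0.696), Rps2-ps13 (0.698), Gm5786 (0.717) and Cox5a (0.747), from 3842 candidates. Cox5a, a respiratory chain subunit gene, was at 49.4 and 7.92 CPM in the controls and at 22.8 and 7.44 CPM in the knockout-labelled libraries. With 4 libraries and so many candidates, close profiles are a description only.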

How the data were processed

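The deposited table gives unnormalized read counts of each gene in 4 libraries, as whole numbers whose totals differ. Per the labels' protocols, total RNA was made into low-input SMARTer libraries and sequenced on a NovaSeq. Per the submitters' processing notes, the tools were STAR, featureCounts of Subread, bcl2fastq and DESeq2, with mm10. These notes name neither the annotation nor the strand setting, nor what each tool did (not given in the sources used here). Repeated lines (276), identical to the first of each gene, were dropped, and all 4 columns of counts were used. Positions and exon lengths came from GENCODE M21 (mm10), in which none of the 10 genes overlapped another gene.

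After filterByExpr and TMM scaling, genes were tested with edgeR 4.0.16 in R 4.3.3 (robust quasi-likelihood test, two-sided, genotype as the only term), with 2 residual degrees of freedom. The 14863 p-values were adjusted by Benjamini and Hochberg's method and called under 0.05. The fit was tested on simulated data for the same comparison (14585 genes, dispersion 0.05, below the 0.194 estimated in these libraries), where it called 100% of 100 genes changed 8-fold and 21% of 100 changed 2-fold, with 0 false calls. Fold changes are those of the knockout-labelled libraries over control. DESeq2 1.42.0, limma-voom (limma 3.58.1), other scalings and filters, and leaving out each library were alternatives. The labels do not say whether each library is a separate animal, so the spread that p-values measure may be technical.

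The members and gene lists were chosen with earlier results of these data known. Named genes were the 10 members, up to 4 tested genes with the smallest p in each list, 12 defining markers or reference genes, and the 5 genes nearest to the S100a8 and S100a9 profile, with a mean of at least 1 CPM and a log2 range of at least 1, computed on log2(CPM + 0.05). Cxcr1, Fcnb, Olfm4, Stfa1 and Stfa3 were chosen after their values were seen. Not every gene picked by this rule is reported here.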

Additional observations from a re-analysis of the deposited data

How the results depend on the processing

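edgeR called 23 genes in all, 563 with no filter beyond 1 count and 49 with at least 50 counts in 2 libraries, whereas DESeq2 called 423, or 481 without the filter, and leaving out 1 library gave 0 to 18 (0 without knockout-labelled library 4, with 1452 genes at an unadjusted edgeR p under 0.05). Of the 10 genes, edgeR called 0, and 2 (Csf3r and Mmp9) with no filter, where it called 563 of 23999 genes. DESeq2 called 1 (Mmp9), or 2 (Mmp8 and Mmp9) without the filter. Leaving out 1 library gave 0 in each case. Of the other 56 neutrophil genes edgeR called 2, and 15 with no filter; DESeq2 called 10, or 11 without the filter, and leaving out 1 library gave 0 to 1. Of the monocyte and macrophage genes edgeR called 7, and 16 with no filter; DESeq2 called 14, or 15 without the filter, and leaving out 1 library gave 0 to 1. Of the dendritic cell and MHC class II genes edgeR called 4, and leaving out 1 library gave 0 to 4. Of the T cell genes edgeR called 1, 4 with no filter and 3 with at least 50 counts in 2 libraries; DESeq2 called 4 with or without the filter, limma-voom called 0 (with 6 at an unadjusted p under 0.05), and leaving out 1 library gave 0 to 4. The log2 fold change of S100a8 ranged from -6.25 to 0.49 when 1 library was left out and reversed without knockout-labelled library 4. Those of Mmp8, Mmp9 and Csf3r kept their direction under all 14 alternatives each. For these genes both knockout-labelled libraries lay above both controls, so a direction kept when 1 library is left out adds no support. The log2 ratio of the summed level of the 10 genes was 1.06, 2.38 without Mmp9 and 1.53 without Mmp9 and Csf3r, and ranged from 0.75 to 1.32 when 1 library was left out. DESeq2 without the filter, the sums without Mmp9 the replicate block and the alternatives for the monocyte, dendritic cell and T cell genes were added after seeing the data. The cause of these differences was not tested. The sample titles share no replicate number, but the columns of the table are numbered 1 and 2 in each group, pairing control library 1 with library 3 and control library 2 with library 4. Nothing in the labels says that these numbers mark a shared animal or day, and the deviations of same-numbered libraries from their group means correlated at 0.071 over 14863 genes. With this number as a replicate block, which leaves 1 residual degree of freedom, edgeR called 0 genes in all and 0 in each list (1709 had an unadjusted p under 0.05), and S100a8 had a log2 fold change of -0.96 (adjusted p = 0.897).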
